A study of Homo sapiens with 6 samples.

Results

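The receptor tyrosine kinase MET, the TAM receptors TYRO3, AXL and MERTK, and the ligands HGF and GAS6 were examined in mRNA counts of Caki-1 cells, an established human clear cell renal carcinoma line. These 6 genes were taken by symbol from the 60708 genes in the count table, as receptors and ligands in pathways that kidney cancer drugs act on. Cells infected with a lentiviral CRISPR vector alone (VC, genotype WT) were compared with cells infected with a vector carrying a VHL guide (VHL-KO), 3 samples in each group. Puromycin selection was applied, and the knockout cells were described as clonal, with the number of clones not given in the sources used here. Total counts per sample ran from 28463579 to 34881739 in VC and from 22628246 to 29139722 in VHL-KO. No label says that the samples were separate cultures, so p-values measure only the spread between these samples, which may be technical.

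MET is the receptor of HGF, a growth and motility factor usually made by stromal cells as an inactive precursor that proteases on the cell surface activate. The TAM receptors bind GAS6, and TYRO3 and MERTK also protein S, vitamin K-dependent proteins that bridge the receptors to phosphatidylserine on dying cells, and they act in survival signalling and in the engulfment of such cells. In clear cell renal carcinoma, VHL loss stabilizes hypoxia-inducible factors, and MET and AXL are targeted there together with the VEGF receptors by some kinase inhibitors.

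VHL itself was counted at 1454, 1124 and 1522 reads in VC and 929, 657 and 650 reads in VHL-KO. Its level in CPM, the count relative to the library total scaled by TMM factors, was 40.2 ± 2.38 in VC and 31.9 ± 2.49 in VHL-KO (SD, n = 3), a log2 fold change of -0.33 (SE 0.11, edgeR adjusted p = 0.0109). All VHL-KO samples lay below all VC samples, but the transcript was still present, and counts over a whole gene do not show an edit within it. The VHL call was lost with upper quartile factors (-0.22), with GC and length offsets (-0.07), and when either VC replicate 1 (-0.28) or VHL-KO replicate 2 (-0.30) was left out, with edgeR adjusted p from 0.0621 to 0.503 in these fits. With library size alone VHL was at -0.53 (edgeR adjusted p = 0.000293), the lowest of its alternatives. An antisense gene on the opposite strand covers 23.5% of its exonic bases. Of 10 hypoxia-inducible factor targets, 9 reached 10 reads in a sample of each group. Of these, 8 were higher in VHL-KO and 1, EGLN3, was lower, beside 28.5% higher and 31.2% lower over all genes tested. CA9, with reads in VHL-KO almost alone, reached that minimum only there and is left out of these counts. NDRG1 went from 11.7 ± 0.481 to 761 ± 28.5 CPM, CA12 from 4.12 ± 0.253 to 63.4 ± 0.251 and ADM from 5.81 ± 0.693 to 67.9 ± 4.32. CA9 had 2 reads in VC, both in replicate 3, and 768 in VHL-KO, a ratio per depth of 562 with a 95% exact counting interval from 155 to 4646, which covers counting error only. An opposite-strand gene overlaps 35.7% of the exonic bases of CA9.

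The receptors and ligands moved apart. AXL, TYRO3 and MERTK mRNA fell in VHL-KO, GAS6 and HGF mRNA rose, and MET did not pass the test. Its sign turned with library size alone and without VC replicate 2, and with GC and length offsets it was called higher (0.40), with or without the replicate block. Thus 5 of the 6 genes passed an adjusted p of 0.05, 2 higher and 3 lower, and the same number had groups that did not overlap. Of all 17401 genes tested, 59.7% passed, 28.5% higher and 31.2% lower, and 64.7% had groups that did not overlap, so that a call by itself was common in this comparison. The middle of all genes lay at a log2 fold change of -0.01, with quartiles at -0.63 and 0.66. AXL, TYRO3, MERTK, GAS6 and HGF all lay outside these quartiles and MET within them. In bulk RNA, fewer cells of a type and less RNA per cell cannot be told apart.

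**Figure D1:**
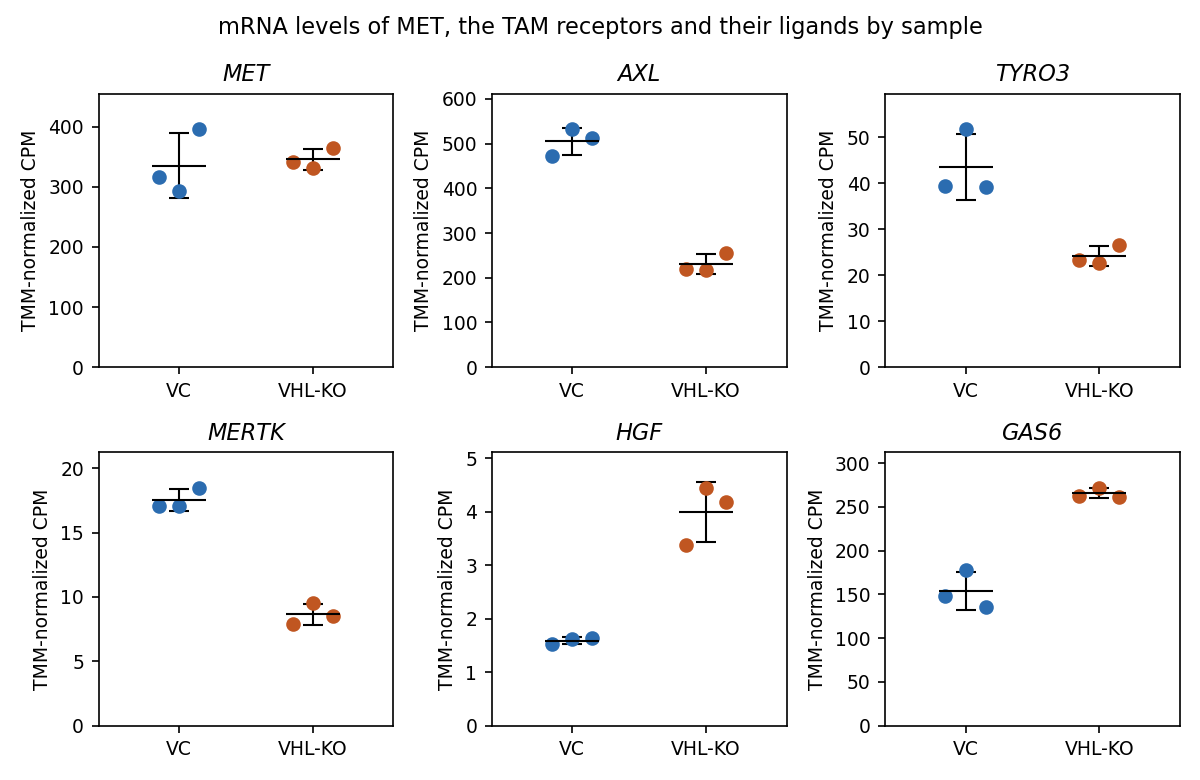
TMM-scaled CPM (vertical axes, from 0) of each gene in 3 VC and 3 VHL-KO samples. Points are samples, the wide line is the mean and the bars are 1 SD. AXL, TYRO3 and MERTK are lower and HGF and GAS6 higher in every VHL-KO sample, while the MET groups overlap and the direction of MET flips with library size alone.

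HGF, the ligand of MET, lies at chr7:81699010-81770438 on the minus strand (GRCh38). It had 52, 48 and 62 reads in VC and 90, 96 and 89 in VHL-KO, or 1.52, 1.62 and 1.63 against 3.37, 4.45 and 4.17 CPM. All 3 VHL-KO samples were above all VC samples, at low counts in both groups. The mean was 1.59 ± 0.0592 in VC and 4.0 ± 0.561 in VHL-KO (SD, n = 3), a log2 fold change of 1.32 (SE 0.22, 95% interval 0.86 to 1.79, edgeR adjusted p = 1.8e-05). Of 4 stromal markers, DCN, LUM and COL1A2 had at most 2 reads in any sample, and PDGFRB had 282, 319 and 293 reads in VC and 55, 50 and 55 in VHL-KO. Their part in the HGF result was not tested.

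GAS6, a ligand of all TAM receptors, lies at chr13:113820549-113864076 on the minus strand. It had 5078, 5298 and 5155 reads in VC and 7020, 5868 and 5581 in VHL-KO, or 149, 178 and 136 against 263, 272 and 262 CPM. The VHL-KO samples lay close together and above all VC samples. The mean was 154 ± 21.8 in VC and 266 ± 5.61 in VHL-KO (SD, n = 3), a log2 fold change of 0.78 (SE 0.10, 95% interval 0.58 to 0.98, edgeR adjusted p = 2.0e-07). With GC and length offsets the log2 fold change was 0.36, still past the threshold. The antisense gene GAS6-AS1 overlaps 7% of the exonic bases of GAS6, and no source used here says whether counting used strand, so reads in the overlap cannot be assigned with certainty. GAS6-AS1 had 266, 218 and 249 reads in VC and 395, 355 and 296 in VHL-KO, with a log2 fold change of 1.06. The divergent transcript GAS6-DT begins 36 bases from the GAS6 start on the other strand, and its log2 fold change was 0.43 (edgeR adjusted p = 0.0522). It passed the threshold under 7 of 15 alternatives. Over all 15, the edgeR or DESeq2 adjusted p ran from 0.0148 to 0.284.

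AXL, at chr19:41219223-41261766 on the plus strand, is the TAM receptor most often linked to carcinoma cells. It had 16146, 15813 and 19415 reads in VC and 5851, 4678 and 5465 in VHL-KO, or 473, 532 and 511 against 219, 217 and 256 CPM. Every VHL-KO sample was well below every VC sample. The mean was 506 ± 30.1 in VC and 231 ± 22.2 in VHL-KO (SD, n = 3), 2.19-fold higher in VC, with a log2 fold change of -1.13 (SE 0.09, 95% interval -1.32 to -0.94, edgeR adjusted p = 1.6e-10). An opposite-strand gene overlaps 1.31% of its exonic bases.

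TYRO3, at chr15:41557675-41583589 on the plus strand, is best known from the nervous system. It had 1347, 1536 and 1488 reads in VC and 619, 487 and 568 in VHL-KO, or 39.5, 51.7 and 39.2 against 23.2, 22.6 and 26.6 CPM. VC replicate 2 was the highest sample, and the groups did not overlap. The mean was 43.4 ± 7.14 in VC and 24.1 ± 2.20 in VHL-KO (SD, n = 3), with a log2 fold change of -0.85 (SE 0.12, 95% interval -1.10 to -0.59, edgeR adjusted p = 2.1e-06). Its pseudogene TYRO3P had 3, 1 and 1 reads in VC and 0 in each VHL-KO sample. Reads that match both copies equally would not have been kept by the authors, so the TYRO3 level is uncertain to that extent.

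MERTK, at chr2:111898607-112029561 on the plus strand, is the TAM receptor of macrophages and retinal epithelium. It had 582, 507 and 702 reads in VC and 212, 205 and 181 in VHL-KO, or 17.0, 17.1 and 18.5 against 7.94, 9.50 and 8.49 CPM. The samples of each group lay close together, and VHL-KO was lower throughout. The mean was 17.5 ± 0.830 in VC and 8.64 ± 0.793 in VHL-KO (SD, n = 3), with a log2 fold change of -1.02 (SE 0.14, 95% interval -1.31 to -0.73, edgeR adjusted p = 9.0e-07). The leukocyte markers PTPRC and CD3E had at most 1 read in any sample.

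MET, at chr7:116672196-116798377 on the plus strand, had 10824, 8692 and 15028 reads in VC and 9126, 7133 and 7786 in VHL-KO. In CPM these were 317, 293 and 396 in VC and 342, 331 and 365 in VHL-KO. All VHL-KO samples fell between the lowest and the highest VC sample. The mean was 335 ± 54.0 in VC and 346 ± 17.7 in VHL-KO (SD, n = 3). The log2 fold change of 0.04 (SE 0.10, 95% interval -0.16 to 0.25, edgeR adjusted p = 0.716) turned to -0.15 with library size alone and to -0.03 without VC replicate 2, and was 0.40 with GC and length offsets, past the threshold. Over its 15 alternatives the edgeR or DESeq2 adjusted p of MET ran from 6.6e-08 to 0.967.

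Scaling moved all genes together. With library size alone the median of all genes was -0.20, a shift of -0.19 from the reported fit, and with upper quartile factors it was 0.10, a shift of 0.11. The share of calls that were higher in VHL-KO was 47.7% as reported, 35.8% by library size alone and 55.0% by upper quartile factors. The TAM receptors, GAS6 and HGF kept their direction and call under all 15 alternatives. AXL ran from -1.32, beside the median of -0.20 with library size alone, to -1.02, TYRO3 from -1.04 to -0.69, MERTK from -1.22 to -0.77, GAS6 from 0.36 to 0.92 and HGF from 1.13 to 1.88.

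**Figure D2:**
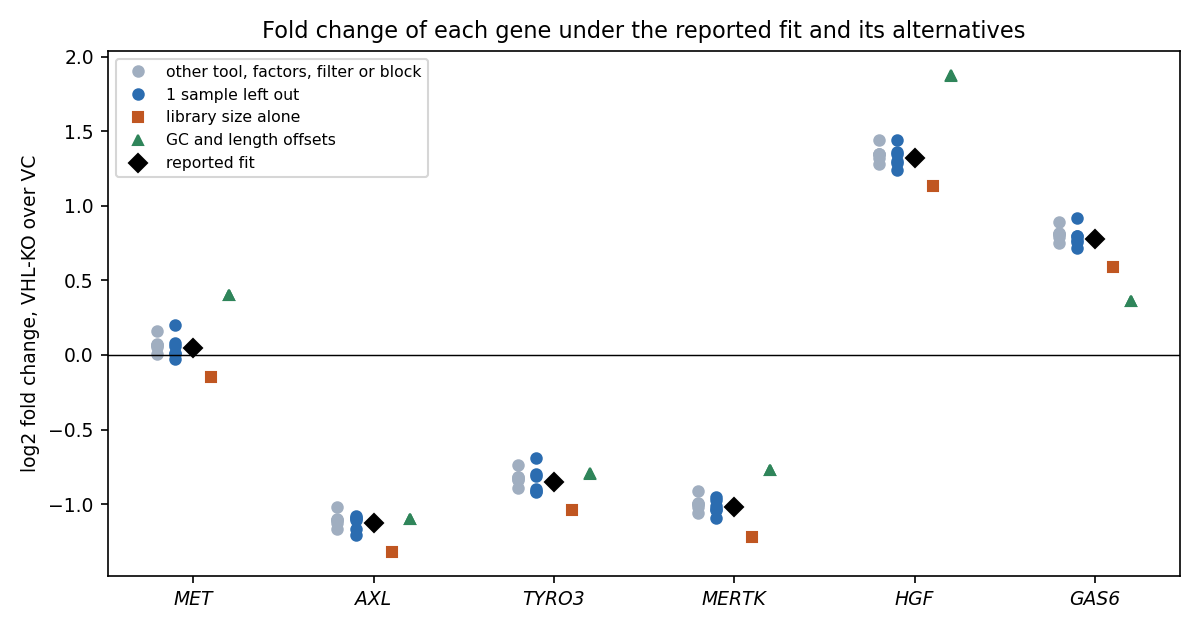
Log2 fold change of each gene (vertical axis, VHL-KO over VC) in the reported fit and in its 15 alternatives, marked by kind. AXL, TYRO3 and MERTK stay below 0 and HGF and GAS6 above 0 in each, while MET runs from -0.15 with library size alone to 0.40 with GC and length offsets.

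Fold changes in these data moved with base composition, and the part of this in each result was not tested beyond the offsets. Genes within 2.5 percentage points of the GC content of GAS6 (63.6%) had a median log2 fold change of 0.49, and 52.2% of them were higher. Genes like HGF (35.7% GC) had a median of -0.51, and genes like MET (43.5% GC) had a median of -0.26. Thus GAS6 moved with genes of like composition, HGF moved against them, and MET lay above their median. For AXL (53.9% GC) the median of like genes was 0.14, for TYRO3 (52.4%) it was 0.10 and for MERTK (46.7%) it was -0.07. All TAM receptors lay below the lower quartile of genes of like composition, which were -0.40 for AXL, -0.42 for TYRO3 and -0.65 for MERTK.

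Levels of different genes were compared as CPM per exonic kilobase. On this scale AXL was the most abundant of 58 receptor tyrosine kinase genes in VC, at 98.5 ± 5.86, followed by MET at 46.4 ± 7.47, FGFR4 at 38.2 ± 3.99 and EPHA2 at 37.8 ± 3.62. In VHL-KO, MET at 47.9 ± 2.45 and AXL at 44.9 ± 4.32 were the most abundant and lay within their spread of each other. EPHA2 followed at 30.6 ± 2.20. This order depends in part on the lengths used. By canonical transcript lengths (3093 bases for FGFR4 and 6822 for MET), FGFR4 would precede MET in VC. By the same lengths (3836 bases for DDR1 and 3946 for EPHA2), DDR1 would precede EPHA2 in VHL-KO. MERTK and TYRO3 were far lower and close to each other, at 4.24 ± 0.201 and 4.03 ± 0.663 in VC and 2.09 ± 0.192 and 2.24 ± 0.204 in VHL-KO. MET per AXL was 0.476, 0.391 and 0.550 in VC and 1.11, 1.08 and 1.01 in VHL-KO. AXL made up 92.1% to 92.5% of the summed TAM receptor level in VC and 90.6% to 91.7% in VHL-KO.

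**Figure D3:**
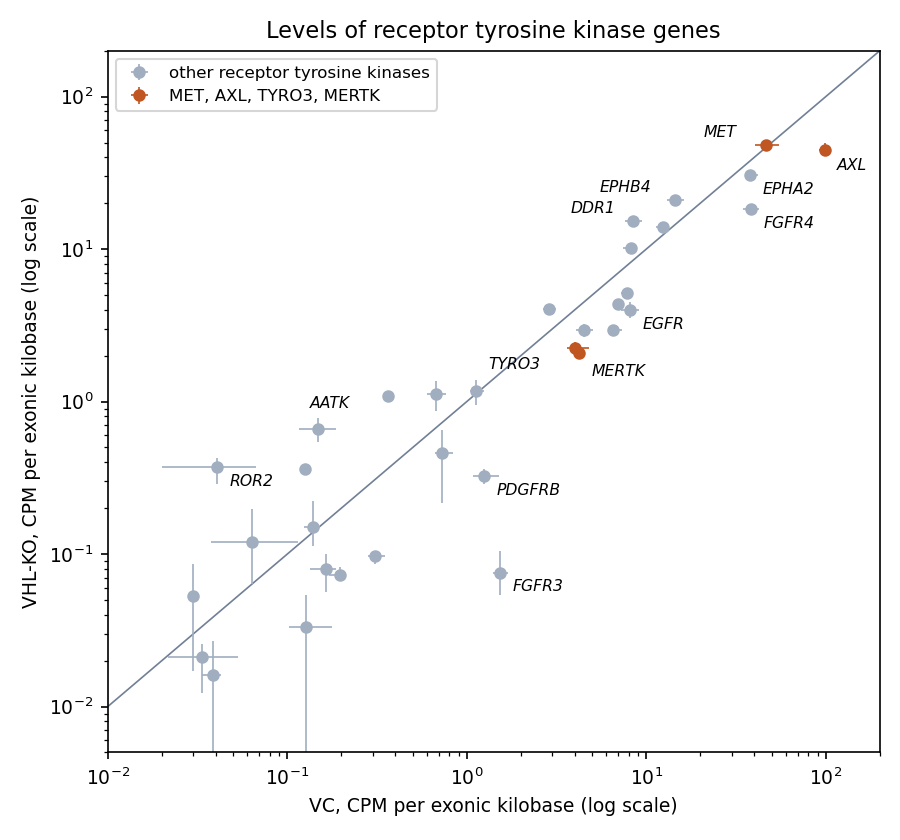
Mean CPM per exonic kilobase of receptor tyrosine kinase genes in VC (horizontal, log scale) and VHL-KO (vertical, log scale). Bars run from the lowest to the highest of 3 samples, the line marks equal levels, and genes near or at 0 in a group are not drawn. AXL lies below the line at the top of the range and MET on it, TYRO3 and MERTK below it.

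The level of GAS6 relative to its receptors differed between the groups. The summed TAM receptor level per exonic kilobase was 99.9, 113 and 108 in VC and 46.7, 46.6 and 54.5 in VHL-KO. GAS6 per summed TAM receptor was 0.248, 0.263 and 0.210 in VC and 0.935, 0.970 and 0.799 in VHL-KO. The ligand was thus at most 0.263 of the receptor sum in each VC sample and near it in each VHL-KO sample. Canonical transcript lengths, an alternative chosen after the data were seen, gave 0.525 ± 0.0599 in VC and 1.97 ± 0.197 in VHL-KO, so that GAS6 was then above the receptor sum in every VHL-KO sample. Lengths are the same in both groups, so this choice bears on the size of the ratio and hardly on the difference between groups. MET per HGF was 244 to 327 in VC and 100 to 137 in VHL-KO, and by canonical transcript lengths 155 to 207 and 63.5 to 86.7. GAS6 per PROS1 was 27.2 to 63.6 in VC and 36.6 to 44.7 in VHL-KO. These ratios were also chosen after the data were seen and are given as descriptions, with no test.

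**Figure D4:**
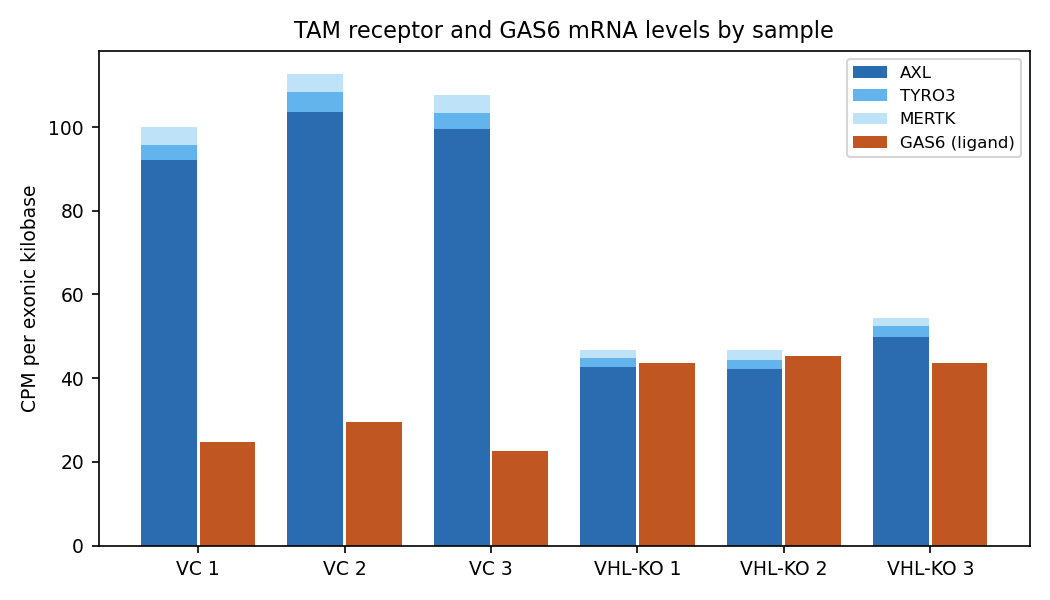
CPM per exonic kilobase (vertical axis, from 0) of AXL, TYRO3 and MERTK, stacked, and of GAS6 in each sample. The receptor sum is 99.9 to 113 in VC and 46.6 to 54.5 in VHL-KO, and GAS6 is lower than the receptor sum in every sample on this scale, but above it in every VHL-KO sample by canonical transcript lengths.

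Among 6 genes that control HGF activation, 3 reached the read minimum in both groups, with 2 higher and 1 lower. Their median log2 fold change was 1.39 against -0.01 over all genes tested, of which 28.5% were higher and 31.2% lower. SPINT2 (1.77) and SPINT1 (1.39), which encode inhibitors of the HGF-activating proteases, were higher, and PLAU (-0.76), the urokinase gene, was lower. Opposite-strand genes overlap 31.0% of the exonic bases of PLAU and 12.2% of those of SPINT2. The 4th gene tested, ST14 or matriptase, was called higher on 12 reads in VHL-KO replicate 1 and 0 in every other sample. No fold is given for it. ST14 was named after its values were seen, it could not be tested without that sample, and DESeq2 did not call it (adjusted p = 0.296). HGFAC was not tested and HPN had 0 reads.

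Of 8 MET co-receptors tested, 3 were higher, 3 were lower and 2 were not called, with a median of 0.05. Among all genes tested, 28.5% were higher and 31.2% lower. The integrin subunits of the laminin receptor moved apart, ITGB4 higher (1.98) and ITGA6 lower (-1.89). PLXNB1 (1.12) and the tetraspanin gene CD151 (1.11, or 0.54 with GC and length offsets) were higher. Of 12 MET adaptors, 1 was higher, 2 were lower and 9 were not called, while 59.7% of all genes were called. PTPN11, the gene of the phosphatase SHP2, was lower (-1.74), STAT3 was higher (0.48, or 0.28 by library size alone), and PIK3R1 (-0.53) lost its call when VC replicate 3 (-0.32) or VHL-KO replicate 1 (-0.45) was left out and with GC and length offsets (-0.035). The count of lower adaptors was 8 with library size alone, 4 without VC replicate 2 and 1 without VC replicate 3 or VHL-KO replicate 1. With GC and length offsets, 3 adaptors were higher and 4 lower.

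Of 11 genes of receptor attenuation and shedding tested, 4 were higher and 5 lower, with a median of -0.25. For comparison, 28.5% of all genes tested were higher and 31.2% lower. TIMP1, an inhibitor of metalloproteases, was higher (1.47, or 0.86 with GC and length offsets), while CBL, a ubiquitin ligase of MET (-1.25), LRIG1 (-0.88) and SH3KBP1 (-0.80) were lower. An opposite-strand gene overlaps 37.9% of the exonic bases of LRIG1. The count of higher genes was 2 by library size alone and 2 when VHL-KO replicate 1 was left out.

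On the TAM side, 7 genes of ligands and of their vitamin K-dependent carboxylation were tested, with 3 higher, 2 lower and 2 not called. GAS6 itself is in this list and is 1 of the 3 higher genes, so the count is not independent of the GAS6 result. The shares over all genes tested were 28.5% higher and 31.2% lower. VKORC1, which recycles vitamin K, was higher (2.46), from 2.58 ± 0.456 to 14.3 ± 2.62 CPM, and was 1.82 with GC and length offsets. A gene on the opposite strand overlaps 58% of its exonic bases and one on the same strand 34.7%, so its count is uncertain. PROS1, the protein S gene, was higher at 0.70 (edgeR adjusted p = 0.00565), but lost its call with library size alone (0.50, edgeR adjusted p = 0.052, the highest over its alternatives) and was 1.24 with GC and length offsets, and its pseudogene makes its count uncertain. TUB was lower (-2.00) at 16, 10 and 23 against 3, 2 and 3 reads, and was not called without VC replicate 1 (-2.00) or VC replicate 3 (-1.75), which left 1 lower gene in the list. TUB reached 10 reads in VC alone, and the other 6 genes, GAS6 included, had a median of 0.34. VKORC1L1, the other lower gene, went from 61.4 ± 4.07 to 42.7 ± 2.96 CPM (-0.52, edgeR adjusted p = 9.4e-05). Of 12 engulfment partners, 4 were higher and 6 lower, beside 28.5% and 31.2% of all genes, with a median of -0.38 for the list. VAV1 (1.24) and ITGB5 (0.74) were higher, and PTK2 (-0.71, or -0.41 with GC and length offsets) and TNS2 (-0.69) were lower.

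Of 15 transcription factors tied to AXL and MET promoters, 3 were higher and 8 lower, with a median of -0.53. Calls over all genes tested were 28.5% higher and 31.2% lower. HIF1A (-2.35), ETS1 (-1.62), SP3 (-1.50, or -0.97 with GC and length offsets) and FOSL1 (-1.21) were lower. The 3 higher were FOS (1.20, at 28 to 50 reads per sample), MZF1 (0.83) and JUN (0.42). Opposite-strand genes overlap 17.2% of the exonic bases of MZF1. These are mRNA levels, and for HIF1A the protein went the other way: the authors report by immunoblot that HIF1α and HIF2α accumulated in VHL-KO Caki-1 cells. With GC and length offsets 5 were higher.

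Of 14 other receptors that kidney cancer drugs act on, 5 reached the read minimum in both groups, and all 5 were lower, with a median of -1.67. Of all genes tested, 28.5% were higher and 31.2% lower. FGFR3 went from 7.40 ± 0.756 to 0.367 ± 0.128 CPM (-4.34), PDGFRB from 8.90 ± 1.61 to 2.32 ± 0.260 (-1.94) and FGFR2 from 5.81 ± 0.702 to 1.82 ± 0.170 (-1.67). CSF1R (-1.97), which reached it in VC alone, had 18, 27 and 20 against 0, 6 and 5 reads and was not called without VC replicate 2 (-1.65) or VHL-KO replicate 1 (-1.32), and was at -2.56 without VHL-KO replicate 2. KDR, the main VEGF receptor, had at most 9 reads in any sample. Among the 54 receptor tyrosine kinase genes other than MET and the TAM receptors, 27 reached the read minimum in both groups, with 9 higher, 13 lower and a median of -0.31. ROR2 (3.15, or 3.78 without VC replicate 3) and AATK (2.17), of which opposite-strand genes overlap 13.7%, were higher.

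**Figure D5:**
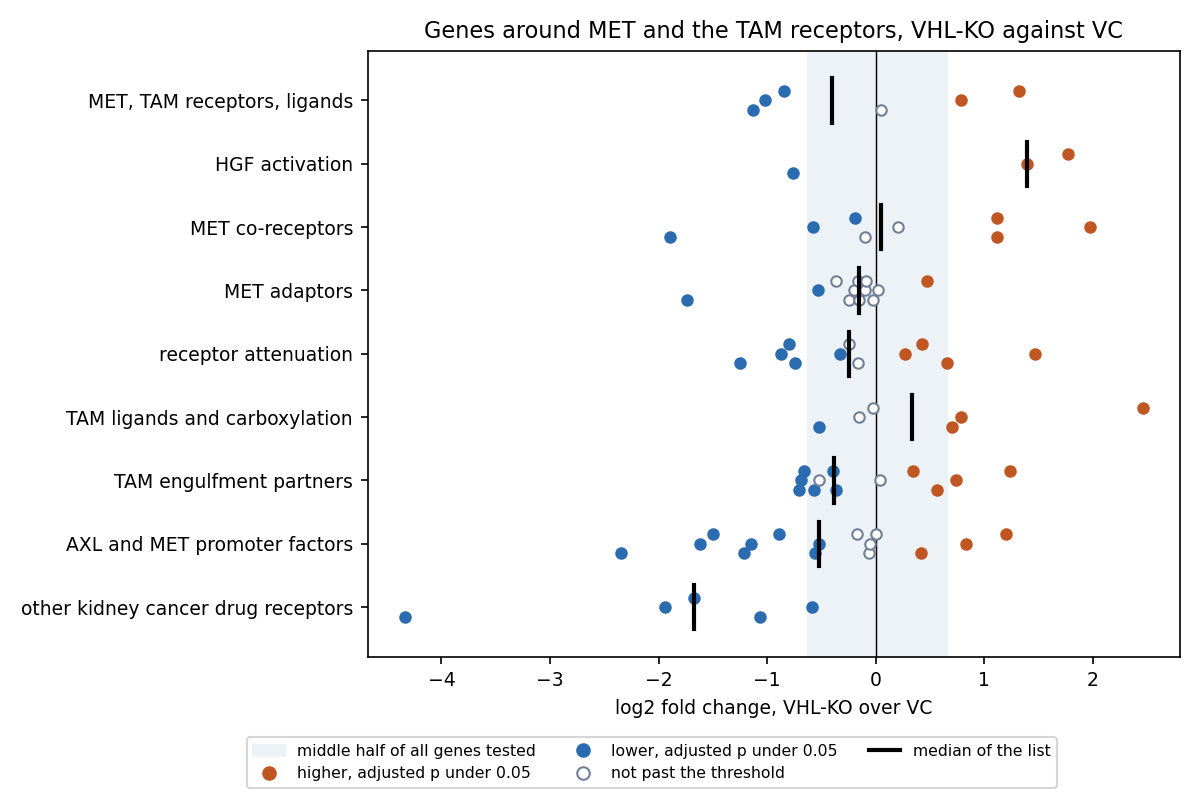
Log2 fold change (horizontal axis, VHL-KO over VC) of the genes of each list that reached the read minimum in both groups. Points are genes, filled where the adjusted p passed the threshold, black lines are medians over the genes drawn, and the band spans the quartiles of all genes, -0.63 to 0.66. ST14, TUB and CSF1R are not drawn, and the 5 other drug receptors all lie to the left of 0. GAS6 is drawn both with the members and with the TAM ligands.

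The nearest tested genes on either side of each member were compared with it. Beside MET, the noncoding COMETT was higher (0.84) and CAPZA2 lower (-0.73, or -0.45 without VC replicate 3, and -0.19 and not called with GC and length offsets). Beside AXL, HNRNPUL1, which begins 730 bases past its end, was lower (-0.85), and CYP2S1 was at -0.01, a value near 0 whose sign changed with other factors. MGA (-0.31, edgeR adjusted p = 0.0485) beside TYRO3 lost its call or turned to 0.03 under several alternatives, in which edgeR or DESeq2 adjusted p reached 0.799, while the pseudogene ELOCP2 was at -1.48 and not called. Beside MERTK, TMEM87B was lower (-0.54) but was not called when VC replicate 3 (-0.38) or VHL-KO replicate 1 (-0.38) was left out or with GC and length offsets (-0.01), and EEF1E1P1 was at -1.51 and called only without VHL-KO replicate 2 (-2.53). Of the 6 neighbours of the TAM receptors, 3 were thus called, beside 59.7% of all genes, and the call of HNRNPUL1 alone was kept with GC and length offsets. Beside HGF, the pseudogene AC010091.1 was higher (1.34, or 2.04 without VC replicate 3) and CACNA2D1 lower (-0.84, or -0.28 and not called with GC and length offsets).

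Genes most like each member were sought among 10909 genes by the root mean square difference of mean-centred log2 CPM over the 6 samples. For AXL these were ACLY, AFAP1L2 and SHROOM3 (0.0375 to 0.0425), for TYRO3 ACTN1, TTLL12 and DYSF, and for MERTK UTP18, CXorf38 and PNO1. For GAS6 they were LRPAP1, SPHK1 and CDIPT (0.0131 to 0.0273), and for HGF SLC7A7, PCOLCE and XKR7 (0.0593 to 0.0851). For MET they were PPP2R5A, RARS2 and GNPTAB (0.0212 to 0.0431). Likeness was sought in these same samples, so fold changes near that of each member follow from the choice. Those of the genes like MET lay near 0 and turned negative with library size alone, a rescaling shared by all genes. With GC and length offsets the fold changes were 0.22 for PPP2R5A, 0.32 for RARS2 and 0.47 for GNPTAB, each called higher. The same offsets moved SPHK1 from 0.79 to 0.20 and CDIPT from 0.79 to 0.30, beside 0.36 for GAS6, and PCOLCE from 1.28 to 0.68. All of these were still called higher. The root mean square difference depended on single samples for 5 of the genes named as alike. It fell to 0.00762 for LRPAP1, 0.0187 for ACTN1 and 0.0428 for PCOLCE without VC replicate 2, to 0.0265 for TTLL12 without VC replicate 1, and to 0.0135 for PPP2R5A without VHL-KO replicate 3.

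Promoter sequence of the members was read from RefSeq on GRCh38.p14 and searched for ACGTG and GCGTG, cores of hypoxia response elements, on both strands over 300 bases around each start. Of 35116 such promoters, 48.4% held either, 21.4% ACGTG and 36.5% GCGTG. The MET window held 3 matches, 2 of which overlap within CACGTG, at chr7:116672199-116672203 and chr7:116672200-116672204. GAS6 and HGF each held 1 match, MERTK held 0, AXL held 0 at its upstream start and 6 at a start inside the gene (chr19:41226505-41226804), and TYRO3 held 0 and 1 at its starts. A match describes letters only, and no match says only that these letters are not in the window. The windows printed here run 250 bases before the start and 30 after it, with matches on either strand in capitals, and show MET, which was not called, AXL and MERTK, which fell together, and GAS6, which rose. They lie at chr7:116671946-116672225 (plus), chr19:41218973-41219252 (plus), chr2:111898357-111898636 (plus) and chr13:113864047-113864326 (minus).
MET: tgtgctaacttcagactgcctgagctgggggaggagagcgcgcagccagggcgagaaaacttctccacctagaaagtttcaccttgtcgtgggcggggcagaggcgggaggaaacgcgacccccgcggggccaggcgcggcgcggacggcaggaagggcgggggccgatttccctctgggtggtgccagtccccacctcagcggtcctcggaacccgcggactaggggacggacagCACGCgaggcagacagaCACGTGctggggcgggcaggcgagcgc
AXL: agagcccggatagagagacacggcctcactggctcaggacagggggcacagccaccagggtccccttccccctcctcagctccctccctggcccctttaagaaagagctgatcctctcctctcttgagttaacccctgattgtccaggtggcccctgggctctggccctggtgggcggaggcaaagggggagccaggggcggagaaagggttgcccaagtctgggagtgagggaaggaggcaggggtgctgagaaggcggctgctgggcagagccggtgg
MERTK: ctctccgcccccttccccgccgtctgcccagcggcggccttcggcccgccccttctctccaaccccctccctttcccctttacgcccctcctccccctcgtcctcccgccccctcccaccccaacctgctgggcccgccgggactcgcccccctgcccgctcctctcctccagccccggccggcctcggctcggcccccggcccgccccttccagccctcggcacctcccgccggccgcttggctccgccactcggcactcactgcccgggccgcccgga
GAS6: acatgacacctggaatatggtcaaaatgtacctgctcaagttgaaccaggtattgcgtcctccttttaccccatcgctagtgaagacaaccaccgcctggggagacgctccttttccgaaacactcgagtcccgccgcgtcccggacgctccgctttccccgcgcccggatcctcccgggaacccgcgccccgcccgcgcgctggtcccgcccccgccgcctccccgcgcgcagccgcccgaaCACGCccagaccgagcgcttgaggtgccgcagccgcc

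Markers of renal epithelium were present, with PAX8, KRT8, KRT18 and CDH16 higher in VHL-KO and PAX2 and LRP2 at 0 reads. Their summed level was 1494, 1700 and 1346 CPM in VC and 2211, 2141 and 2147 CPM in VHL-KO, KRT8 being the most abundant. Of 5 leukocyte markers 1 was tested, CD14, and the list summed to 1.70, 1.78 and 1.37 CPM in VC and 4.45, 5.33 and 3.89 CPM in VHL-KO. Of 3 endothelial markers 1 was tested, PECAM1, and the list summed to at most 0.168 CPM in VC and 0.711 CPM in VHL-KO, with CDH5 at 1 read in all. Of 4 stromal markers 1 was tested, PDGFRB, which was most abundant, and the list summed to 8.26, 10.7 and 7.80 CPM in VC and 2.13, 2.32 and 2.58 CPM in VHL-KO, with LUM at 0. The leukocyte sum, mostly CD14, was higher in VHL-KO. The stromal sum, nearly all PDGFRB, which is also one of the receptor tyrosine kinases above, was lower. Each sum thus describes 1 gene and not the share of a cell type. The endothelial sum rests on too few reads for a comparison. The part of these markers in the results for HGF, GAS6 and the TAM receptors was not tested.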

How the data were processed

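Total RNA of 3 VC and 3 VHL-KO Caki-1 samples was sequenced. The deposited values are raw read counts per gene, which the authors made by trimming with Trim Galore and cutadapt, alignment with STAR to GRCh38.p13, keeping reads with a single location with SAMtools, and counting with HTSeq. Versions, strand setting and annotation release are not given in the sources used here. Samples were grouped by their labels. Counts were tested in edgeR 4.0.16 (R 4.3.3) with TMM factors and the quasi-likelihood F test on the 17401 genes that reached 10 reads in any sample, with Benjamini-Hochberg adjustment over all of them and a threshold of 0.05. The standard error is the absolute log2 fold change over the square root of F. A count of 0 allows up to 3 counts, 0.079 to 0.141 CPM by sample, and intervals and floors cover counting error only. Exonic lengths, GC content and positions are from GENCODE 44. The script was tested on simulated data. Alternatives were DESeq2 1.42.0, other factors and filters, each replicate left out, a replicate block, and GC and length offsets (splines with 5 degrees of freedom per library). Lengths of canonical transcripts were added after seeing the data.

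Named were the 6 members and VHL, hypoxia targets, antisense partners, in each other list the 4 tested genes of greatest absolute log2 fold change that passed the threshold without overlap of groups, the 3 genes most alike in pattern among those averaging 100 normalized counts or more, and the nearest tested gene on each side. VKORC1L1 was named in addition, as the other lower gene of its list, and FOS, MZF1 and JUN as the higher genes of theirs. The members and lists were chosen with earlier results of these data known. A planned comparison of receptor proteins was not run. Python 3.11.15 and matplotlib 3.10.9 drew the figures.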

Additional observations from a re-analysis of the deposited data

How the results depend on the processing

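AXL, TYRO3, MERTK, GAS6 and HGF kept direction and call under all 15 alternatives. Leaving out 1 sample gave -1.21 to -1.08 for AXL, -0.92 to -0.69 for TYRO3, -1.09 to -0.95 for MERTK, 0.72 to 0.92 for GAS6 and 1.24 to 1.44 for HGF. MET ran from -0.028 to 0.20 with 1 sample left out, was -0.15 with library size alone and was 0.40 with GC and length offsets, with or without the replicate block. The cause was not tested.

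With library size alone, GNPTAB was -0.11, PPP2R5A -0.18 and RARS2 -0.16, lower MET adaptors numbered 8 in place of 2, and higher attenuation genes 2 in place of 4. With no filter beyond 1 count, PPP2R5A was -0.021 and RARS2 -0.005. CYP2S1 was 0.015 in DESeq2, 0.017 with relative log expression factors, 0.10 with upper quartile factors and 0.024 where every sample had to reach 10 reads, and that filter left 1 lower gene of TAM ligands and carboxylation, since TUB was no longer tested. With GC and length offsets MGA was 0.03, MET adaptors numbered 3 higher and 4 lower, and promoter factors 5 higher, and with the replicate block added these were 0.03, 2, 4 and 5. The cause was not tested.

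With 1 sample left out, CYP2S1 ran from -0.12 to 0.13, PPP2R5A from -0.046 to 0.17 and RARS2 from -0.029 to 0.17. Lower MET adaptors then numbered 1 to 4, higher attenuation genes 2 to 4 and lower genes of TAM ligands and carboxylation 1 to 2.

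Same-numbered samples had correlations of deviations of 0.203, -0.097 and 0.075 over 10907 genes, so the numbers were not taken as pairs. The replicate block gave 10284 calls in place of 10394 and -1.13 for AXL. It changed the call of no gene named here for which alternatives were run gene by gene. Depth limits HGF, at 48 to 96 reads, and genes near the floor.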
